A study of Mus musculus with 6 samples.

Results

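The genes described here encode fibroblast growth factors (FGFs), their receptors, the docking proteins of these receptors and the proteins and factors that ERK signalling induces or that restrain it. They were chosen by symbol, as every row of the deposited table named Fgf, Fgfr, Fgfrl1, Frs2, Frs3, Spry, Spred, Dusp or Etv1, Etv4 and Etv5, with no use of their values. This gave 42 of the 14005 listed genes. They comprised 7 secreted ligands, 2 intracellular FGF homologous factors, 4 receptors, 2 docking proteins, 3 Sprouty genes, 3 Spred genes, 18 dual-specificity phosphatase (Dusp) genes and 3 PEA3 factors of the ETS family. The mm9 annotation names 62 protein-coding genes that fit this rule. The other 20, among them Fgf1, Fgf9, Fgf17, Fgf18 and Fgfr4, had no row and were not analysed here.

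The libraries held RNA of FLK1+ mesodermal cells from day 3.5 embryoid bodies (EBs), which are aggregates of differentiating mouse embryonic stem (ES) cells. The WT group came from J1 ES cells and the Scl-/- group from ES cells that lack Scl (Tal1), a transcription factor required for blood formation. Each group had 3 libraries, numbered 1 to 3 after independent differentiations that both genotypes share. The strain label reads C57Bl/6 X Sv129 for WT replicates 1 and 2 and Scl-/- replicate 1, and ends in Sv130, Sv131 and Sv132 for Scl-/- replicate 2, WT replicate 3 and Scl-/- replicate 3. With an ES cell line per genotype, line and genotype cannot be told apart. FLK1+ cells were enriched from whole EBs with an antibody and magnetic columns.

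The table gives CPM, the reads of a gene scaled to a common library size, from 38623641 to 47621120 reads on listed genes per library. At this depth 3 reads correspond to 0.0615 to 0.0784 CPM, and the member gene with the fewest reads in any library, Fgf4, had 59. Tal1 was at 303, 182 and 306 CPM across WT replicates 1, 2 and 3 and at 9.35, 5.68 and 5.87 CPM across the Scl-/- replicates, and values below are given in this order. Kdr, which encodes FLK1, lay between 832 and 868 CPM in WT and, lower, between 724 and 810.4 CPM in Scl-/- libraries (limma adjusted p = 0.125 with the replicate block described below). The 9 markers of FLK1+ mesoderm, Tal1 included, summed to 2329 to 2624 CPM in WT and 2350 to 2804 CPM in Scl-/- libraries. This sum held genes that moved in opposite directions: with the block, Etv2, Mesp1, Mixl1, Pdgfra and T were called higher (5 of 9) and Lmo2 and Tal1 lower (2 of 9). Median log2 fold changes were 0.31 on chromosome 11 and -0.29 on chromosome 1, while 18 other chromosomes had medians from -0.016 to 0.031, so log2 fold changes with each chromosome's median removed are given for the 10 members on these.

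FGF ligands are secreted proteins that bind receptor tyrosine kinases together with heparan sulphate. The activated receptor phosphorylates the docking protein FRS2, which recruits GRB2 and SOS and switches on RAS, RAF, MEK and ERK. ERK then induces genes of its own restraint, among them Sprouty and Spred proteins and the phosphatase DUSP6, together with the PEA3 factors, and the transcripts of these genes are widely used to read FGF signalling. In the gastrulating embryo, FGF signalling is needed for cells to leave the primitive streak and for mesoderm to be patterned.

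For the genes with a change in either direction, the sequence before the transcription start is shown for Fgf10, Dusp6 and Fgf3, because SCL binds E-box motifs (CANNTG) as part of a complex with E proteins. The RefSeq promoter table of the GRCm38.p6 build held 34 of the 42 genes and had no entry for Spry4, Etv4, Fgf8, Fgf15, Fgfr1, Dusp4, Dusp9 and Dusp19. The 200 bases that end 50 bases before the start are given on the plus strand, 5′ to 3′, at chr13:118714449-118714648 for Fgf10, chr10:99262981-99263180 for Dusp6 and chr7:144838362-144838561 for Fgf3, and capitals mark each E-box.
Fgf10: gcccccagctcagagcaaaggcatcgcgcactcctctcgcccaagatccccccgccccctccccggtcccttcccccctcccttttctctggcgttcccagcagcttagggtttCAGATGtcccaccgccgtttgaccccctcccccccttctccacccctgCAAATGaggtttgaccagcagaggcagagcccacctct
Dusp6: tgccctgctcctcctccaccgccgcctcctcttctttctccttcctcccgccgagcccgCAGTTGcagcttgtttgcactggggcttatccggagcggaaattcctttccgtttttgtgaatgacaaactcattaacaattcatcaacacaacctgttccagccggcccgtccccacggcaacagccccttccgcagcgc
Fgf3: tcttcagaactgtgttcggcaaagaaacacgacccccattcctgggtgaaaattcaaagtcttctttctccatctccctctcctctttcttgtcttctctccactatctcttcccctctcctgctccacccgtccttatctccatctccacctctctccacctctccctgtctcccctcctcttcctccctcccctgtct
The Fgf10 stretch held CAGATG 136 bases and CAAATG 88 bases before the start. That of Dusp6 held CAGTTG 191 bases before the start. The Fgf3 stretch held no E-box, and had a GATA motif read on the other strand (TTATCT) 115 bases and a TCF/LEF motif (TCAAAG) 197 bases before the start. Both strands were searched over the 250 bases before the start. CANNTG occurred in 66.2% of all 32851 promoters and at 23 of the 34 genes. The narrower CAGATG, which is contained in CANNTG, occurred in 14.4% of promoters and at 3 genes. The motif of GATA factors, spelled AGATAA, occurred in 9.99% and at 2 genes, that of ETS factors, CCGGAA, in 12.0% and at 5, and the TCF/LEF motif CTTTGA in 13.8% and at 3. The percentages are over promoter entries, while a gene counted if any of its listed starts had a match. A match describes these letters and does not show binding. The paper mapped SCL binding in WT day 3.5 FLK1+ cells by ChIP-seq, and only a small part of the bound loci had it at the transcription start. Those peaks were not used here.

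All 42 genes passed the filter of 0.5 CPM in at least 3 libraries and were compared between genotypes with limma on log2(CPM + 0.5). A gene was called at a Benjamini-Hochberg adjusted p under 0.05, taken over all 13991 genes tested, and an absolute log2 fold change (Scl-/- against WT) above 0.48. Without a term for the differentiation, Spry4 was called higher and Fgf3 lower in Scl-/- cells. These 2 genes are 4.76% of the 42, and 2.36% of all genes were called, 0.793% higher and 1.57% lower. Over all genes, libraries of the same number deviated together from their group means. Over the 42 members alone these deviations correlated at 0.65, 0.75 and 0.25 for numbers 1, 2 and 3, and WT replicate 3 correlated more with Scl-/- replicate 1 (0.43) than with Scl-/- replicate 3. With the replicate number as a block 13 genes were called, or 31.0%, against a background of 12.6%. The 10 higher genes were the ligands Fgf5, Fgf8 and Fgf10, the feedback inhibitors Spry4, Spred1, Spred2 and Dusp6, the phosphatase gene Dusp14 and the PEA3 factors Etv4 and Etv5, and the background of higher genes was 6.04%. The 3 lower genes were Fgf3, Fgf15 and Spred3, where the background was 6.6%. The groups did not overlap for 11 of the 42 genes (26.2%; all genes 21.6%), and the 3 same-numbered pairs differed in the same direction for 25 (59.5%; all genes 56.2%). The median log2 fold change of the 42 genes was 0.06, against 0.01 over all genes tested.

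The counts depended on single libraries. Without the block, limma called 0 of the 42 genes when WT replicate 1, WT replicate 3, Scl-/- replicate 2 or Scl-/- replicate 3 was left out (8, 11, 11 and 11 had an unadjusted p under 0.05), and 3 when WT replicate 2 or Scl-/- replicate 1 was left out. The call of Fgf3 was lost in 5 and that of Spry4 in 4 of these 6 fits, while Fgf3 stayed between -1.52 and -1.09 and Spry4 between 1.18 and 1.57 on the log2 scale. In the fit of all 6 libraries without the block, 14 of the 42 and 2474 of all 13991 genes had an unadjusted limma p under 0.05. With the block, 18 genes were called without replicate 1, 10 without replicate 2 and 8 without replicate 3. Counts over all genes in the fits with fewer libraries are not given here. Whether the members changed more than other genes in those fits can therefore not be told. Fgf3, Fgf10, Fgf15, Spry4, Dusp6, Etv4 and Etv5 were the 7 of the 13 called genes that kept their call in each of these 3 fits.

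**Figure D1:**
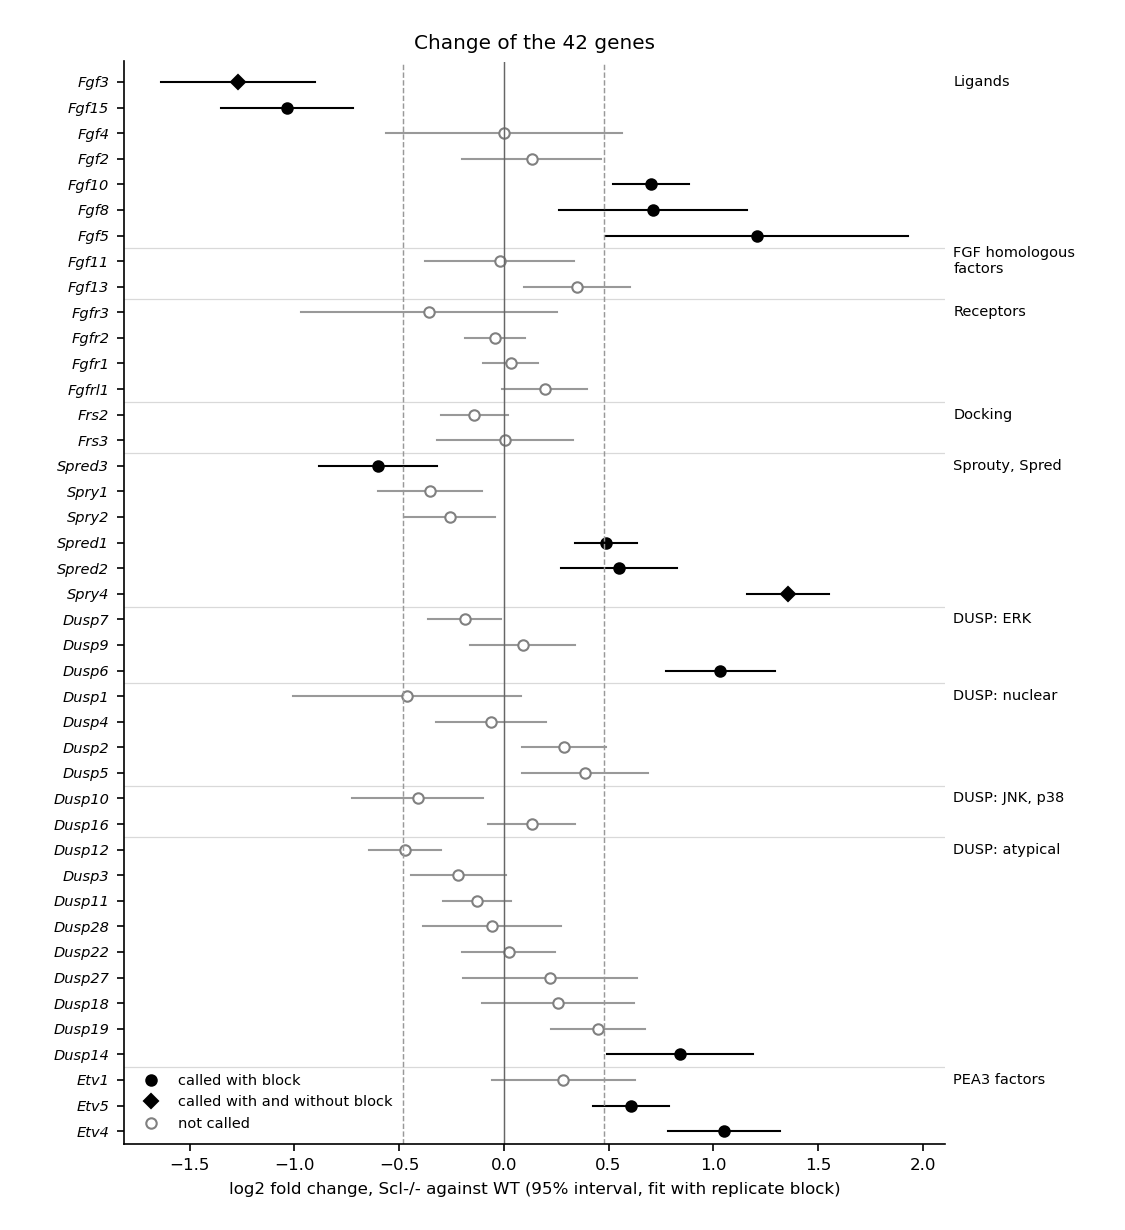
Log2 fold change of each of the 42 genes, Scl-/- against WT, by role, with the 95% interval of the fit with the replicate block; dashed lines mark the fold-change threshold of 0.48. Spry4 at 1.36 and Fgf3 at -1.27 (diamonds) lie farthest from 0, and the 4 receptor genes lie between -0.36 and 0.20.

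Levels between genes were compared as CPM per kilobase of exon, averaged over the 6 libraries. The receptor Fgfr2 was highest at 152.6 ± 8.15 CPM per kilobase (SD, n = 6), followed by Dusp4 at 96.2 ± 13.0. These neighbours in the order did not overlap, since Fgfr2 was at least 140.0 in each library and Dusp4 at most 108.8. The annotated Fgfr2 gene runs from 137305965 to 140315033 of chromosome 7 in mm9 and shares exon bases with Ctbp2 on the same strand. Whether reads of other genes add to the Fgfr2 level was not tested. Fgf3 was the ligand with the highest level, at 62.0 ± 33.3 CPM per kilobase, and its libraries ranged from 33.4 to 110.5, so that it overlapped with Dusp4 as well as with Dusp9 (56.3), Fgfr1 (37.8), Dusp6 (37.2) and Etv5 (33.3). Fgf10 (22.2) and Fgf15 (19.5) were next among the ligands, and their order differed between the groups: Fgf15 was higher than Fgf10 in WT replicates 1 and 3, and Fgf10 was higher than Fgf15 in WT replicate 2 and each Scl-/- library. Fgf8 had a mean of 9.80 and a range from 4.09 to 16.1, which overlapped with that of Fgf15 (10.1 to 32.1). The means of Fgf2 (4.41), Fgf5 (1.89) and Fgf4 (0.83) were lower. The lowest of the 42 was the FGF homologous factor Fgf11, at 0.68 CPM per kilobase.

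**Figure D2:**
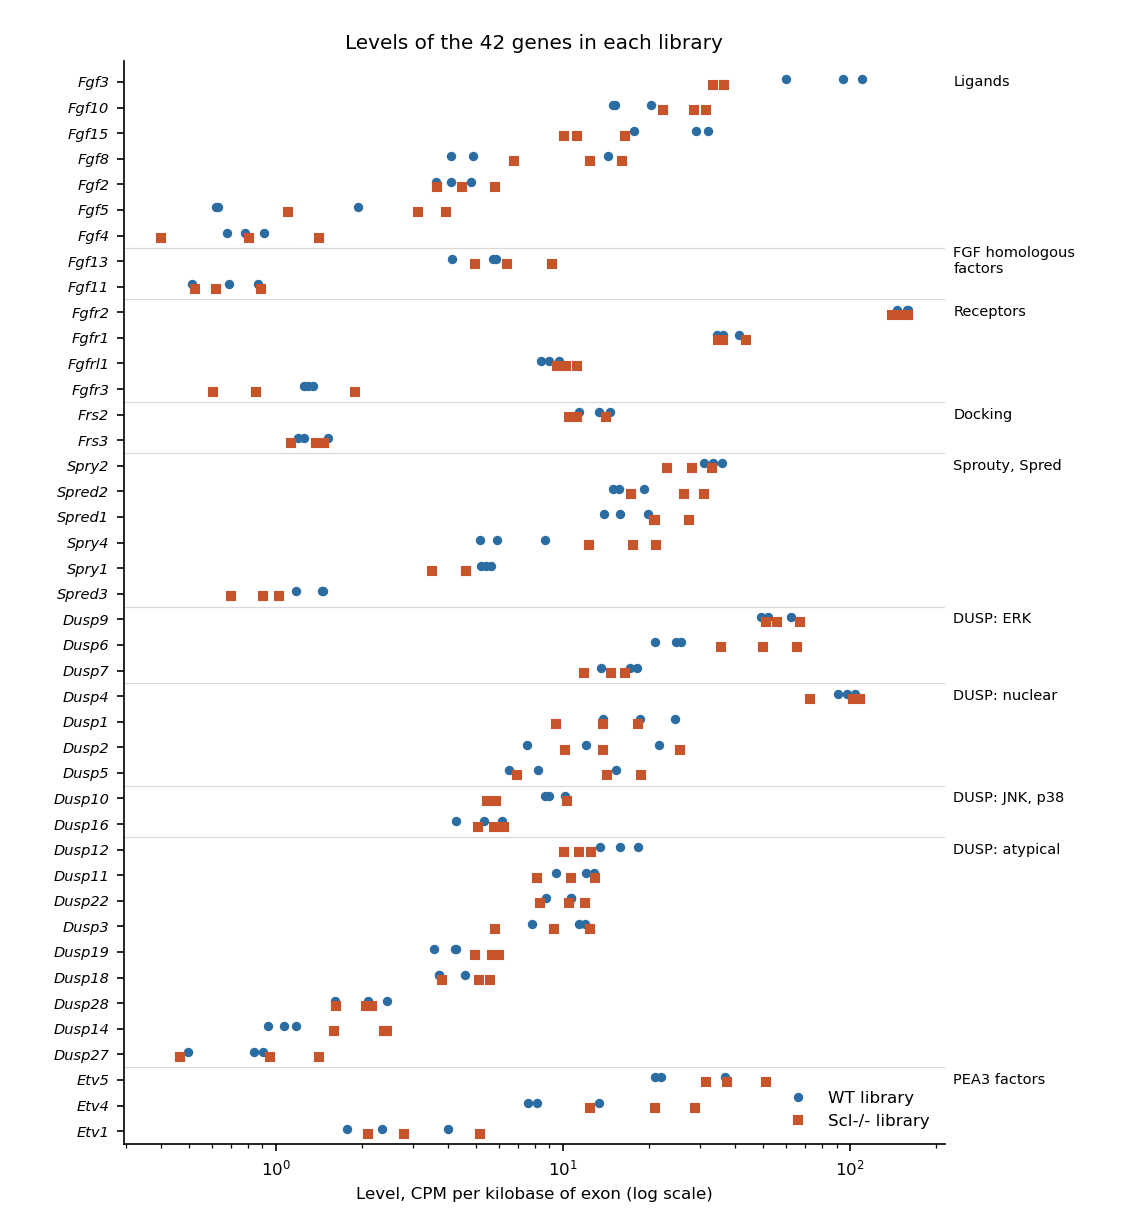
CPM per kilobase of exon of the 42 genes in each library (log scale), by role, with 3 WT (circles) and 3 Scl-/- libraries (squares). Fgfr2 lies between 140.0 and 159 in all 6 libraries, while Fgf3 lies between 33.4 and 36.6 in Scl-/- and between 60.2 and 110.5 in WT libraries.

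Among the 7 ligands, 1 was called without the block and 5 with it, in both directions (all genes 2.36% without and 12.6% with the block). Fgf3, a ligand of the primitive streak and the developing inner ear that lies at 152023988 to 152030341 of chromosome 7 in mm9, had 220.2, 140.0 and 257 CPM in WT and 84.8, 85.1 and 77.6 CPM in Scl-/- libraries. The 3 Scl-/- libraries lay close together and below each WT library. Mean CPM was 2.49 times higher in WT, at 206 ± 59.8 against 82.5 ± 4.22 CPM (SD, n = 3). The fitted log2 fold change, which here and below compares means of log2(CPM + 0.5) and so can differ from the ratio of mean CPM, was -1.27 (standard error 0.21, limma adjusted p = 0.0278 without and 0.00139 with the block). Fgf15, the mouse counterpart of human FGF19 and known for its part in bile acid control, had 52.9, 32.2 and 58.1 CPM in WT and 29.9, 18.3 and 20.3 CPM in Scl-/- libraries. Each WT library lay above each Scl-/- library, although WT replicate 2 and Scl-/- replicate 1 were close. Its log2 fold change was -1.03 (standard error 0.26), and limma called it with the block (adjusted p = 0.00179) and not without it (0.101). In all Scl-/- libraries markers of endothelial and blood cells were low too: 8 of 9 had a row, they summed to 198 to 411 CPM in WT and 27.3 to 61.1 CPM in Scl-/- libraries, and the embryonic globin Hbb-bh1 was at 0 in each Scl-/- library. Their part in the lower Fgf3 and Fgf15 was not tested. In bulk RNA, fewer cells of a type and less RNA per cell cannot be told apart.

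Fgf10, Fgf8 and Fgf5 had higher levels in Scl-/- cells. Fgf10, known for lung and limb buds and for the cardiac progenitors of the second heart field, had 69.1, 93.6 and 70.2 CPM in WT and 103, 145 and 132 CPM in Scl-/- libraries. No Scl-/- library was as low as any WT library. The ratio of mean CPM was 1.63 and the fitted log2 fold change 0.70 (standard error 0.17, limma adjusted p = 0.0897 without and 0.000834 with the block). Fgf8, which gastrulating cells need to leave the streak, had 5.52, 19.5 and 6.56 CPM in WT and 9.12, 21.8 and 16.9 CPM in Scl-/- libraries. Replicate 2 was the highest of its group in both genotypes, and WT replicate 2 lay above 2 of the 3 Scl-/- libraries. With the block the log2 fold change of 0.71 was called (limma adjusted p = 0.0327), and without it the adjusted p was 0.54; the block lost this call without replicate 3. Fgf5, a marker of the epiblast, had 1.58, 4.83 and 1.55 CPM in WT and 2.77, 7.83 and 9.82 CPM in Scl-/- libraries. The groups overlapped, and each Scl-/- library exceeded its same-numbered WT library. The log2 fold change of Fgf5 was 1.21 (standard error 0.52, limma adjusted p = 0.29 without and 0.0266 with the block), and the block lost this call without replicate 2 or without replicate 3. Markers of pluripotent or epiblast cells, 7 of 8 with a row, summed to 219.6, 527 and 248 CPM in WT and 315, 915 and 683 CPM in Scl-/- replicates 1 to 3, with 3 genes called higher and 1 lower with the block. Tdgf1 had 75.0, 322 and 120 CPM of this sum in WT and 196, 632 and 447 CPM in Scl-/- libraries. Esrrb was lower in every Scl-/- library than in any WT library, and the groups overlapped for Klf4. Pou5f1 and Nanog were detected in every library, at 67.1 to 122 and 7.50 to 16.0 CPM in WT. The part of pluripotent or epiblast cells in the levels of Fgf5 and Fgf8 was not tested.

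The remaining ligands, Fgf2 and Fgf4, were not called. Fgf2, also called basic FGF, had 7.38, 6.51 and 8.64 CPM in WT and 10.5, 6.58 and 8.03 CPM in Scl-/- libraries. The groups overlapped, and the log2 fold change of 0.13 had a 95% interval of -0.20 to 0.46 with the block. Of its exon bases, 13.4% are shared with the antisense gene Nudt6, and whether the counting used the strand is not given in the sources used here. Fgf4, a ligand of the epiblast and streak, ranged from 2.06 to 2.77 CPM in WT and from 1.21 to 4.28 CPM in Scl-/- libraries, with an interval of -0.56 to 0.56.

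Fgf3, Fgf4 and Fgf15 lie in a cluster on chromosome 7, with Fgf4 from 152047291 to 152051148 and Fgf15 from 152082437 to 152086858 of mm9. Their neighbours were examined after the values had been seen. Of the 14 tested genes with any part within 500 kb of Fgf3, 11 are not FGF genes. Their log2 fold changes ran from -0.97 to 0.71, and limma called 0 of them without the block and 3 with it. The background over all genes in these fits was 2.36% and 12.6%. Among the 3 is Gm17685, which shares exon bases with Fgf15 and so may not count as a separate neighbour. Whether genes near Fgf3 changed more often than other genes was not tested. Ccnd1 and Oraov1, which lie beyond Fgf15, had log2 fold changes of 0.02 and 0.06. Ano1, on the other side of Fgf3, had 7.80, 5.04 and 6.34 CPM in WT and 5.39, 2.05 and 3.29 CPM in Scl-/- libraries, a log2 fold change of -0.82 (limma adjusted p = 0.00819 with the block). Gm17685, an antisense gene of identifier ENSMUSG00000090767 without a symbol in the table, shares 478 exon bases with Fgf15, or 26.4% of the Fgf15 exons, and had a log2 fold change of -0.97 (limma adjusted p = 0.00315 with the block). Reads from the strands of this pair may not have been told apart. On the side of Ano1, Fadd (-0.48), Gm10574 (-0.44) and Ppfia1 (-0.30) were lower in each of the 3 pairs but not beyond the threshold of size (limma adjusted p = 0.00843, 0.0146 and 0.012 with the block). Fadd was called, at -0.49, once chromosome medians were removed. Shank2, the farthest, was at 0.71 (limma adjusted p = 0.0202 with the block). Fgf4, which lies between Fgf3 and Fgf15, had no call in either fit.

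**Figure D3:**
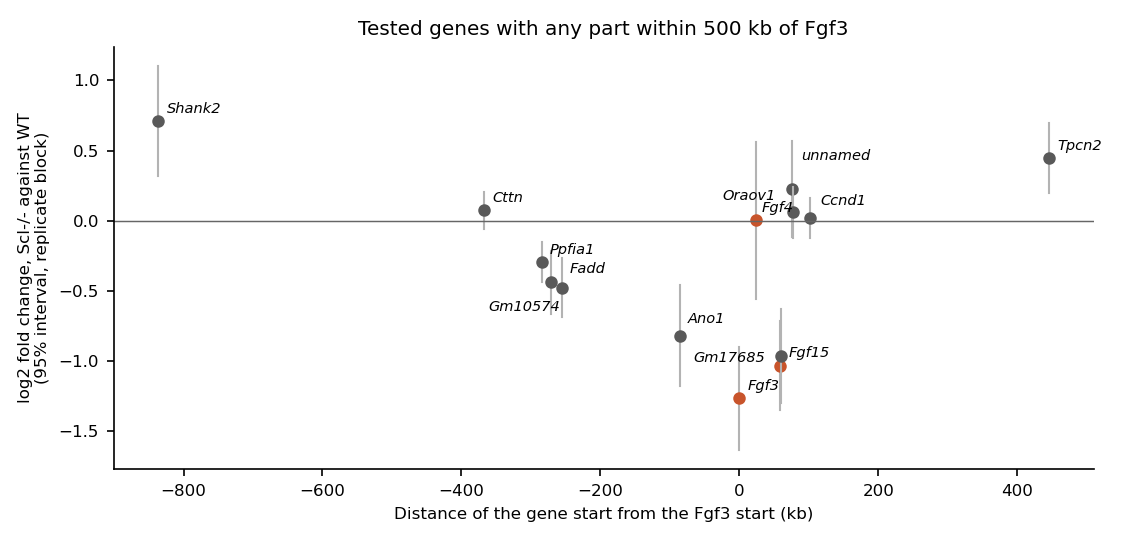
Log2 fold change with its 95% interval (replicate block) of the 14 tested genes with any part within 500 kb of Fgf3, against the distance of each gene start from the Fgf3 start in kb. FGF genes are orange and others grey; Fgf3 (-1.27), Fgf15 (-1.03) and the overlapping Gm17685 (-0.97) lie lowest, and Ccnd1 (0.02) and Oraov1 (0.06) near 0.

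None of the 4 receptor genes was called, with or without the block, and 0 of them had an unadjusted limma p under 0.05 in either fit. Among all 13991 genes tested, 2474 had an unadjusted limma p under 0.05 if the block was left out, and 5161 if it was included. The shares called in these fits were 2.36% and 12.6%. With only 4 receptor genes, a count of 0 cannot be told from this background. Fgfr2 had 1239.5, 1242 and 1139 CPM in WT and 1242, 1182 and 1091 CPM in Scl-/- libraries. The groups overlapped, and the log2 fold change of -0.04 had a 95% interval of -0.19 to 0.10 with the block. The annotated Fgfr2 gene shares 4.03% of its exon bases with Ctbp2, which lies on the same strand and has its own row. Fgfr1, whose loss in the mouse embryo stalls cells at the streak, had 279, 332 and 291 CPM in WT and 280.4, 352 and 293 CPM in Scl-/- libraries. Replicate 2 was highest in both genotypes, and each Scl-/- library was slightly above the WT library of its number. The log2 fold change was 0.03, with an interval of -0.10 to 0.16. A shorter Fgfr1 gene model without a symbol in the table, of identifier ENSMUSG00000091895, shares 9.44% of the Fgfr1 exon bases and ranged from 37.9 to 53.0 CPM, so that reads of the locus may be split between them. Fgfrl1, a receptor that lacks the kinase domain, had 23.7, 22.3 and 25.7 CPM in WT and 29.9, 25.4 and 27.2 CPM in Scl-/- libraries. WT replicate 3 lay above Scl-/- replicate 2, and the log2 fold change of 0.20 had an interval of -0.01 to 0.40. Fgfr3 had 8.65, 8.94 and 9.28 CPM in WT and 13.0, 4.16 and 5.87 CPM in Scl-/- libraries. Scl-/- replicate 1 was the highest and the other Scl-/- libraries the lowest of the 6, and the interval ran from -0.97 to 0.25. The docking genes Frs2 and Frs3 had log2 fold changes of -0.14 and 0.01, and the intracellular factors Fgf11 and Fgf13 of -0.02 and 0.35, with no call in either fit. Fgf11, on chromosome 11, was at -0.33 with chromosome medians removed (limma adjusted p = 0.2 with the block).

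Sprouty and Spred proteins restrain the RAS to ERK cascade, and their genes did not move alike. Spry4 had 23.6, 39.9 and 27.0 CPM in WT and 56.5, 97.0 and 80.6 CPM in Scl-/- libraries. The lowest Scl-/- library was above the highest WT library. Mean CPM rose 2.59-fold, from 30.2 ± 8.58 to 78.1 ± 20.4 CPM (SD, n = 3), and the fitted log2 fold change of Spry4 was 1.36 (standard error 0.25, limma adjusted p = 0.0396 without and 6.78e-05 with the block), the highest of the 42 genes. Spry1 had 15.1, 16.4 and 15.7 CPM in WT and 10.2, 13.3 and 13.4 CPM in Scl-/- libraries, with no overlap. Its log2 fold change of -0.35 was below the threshold of size (limma adjusted p = 0.279 without and 0.0487 with the block). Spry2 had 69.6, 74.8 and 64.6 CPM in WT and 48.1, 69.0 and 59.1 CPM in Scl-/- libraries. These ranges overlapped, and the log2 fold change of -0.26 was not called (limma adjusted p = 0.0833 with the block).

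Spred1, Spred2 and Spred3 were called with the block, in both directions. Without it limma called 0 of these 3, at adjusted p between 0.158 and 0.242, although 3 had an unadjusted p under 0.05. Over all 13991 genes, 12.6% were called with the block, and 2474 had an unadjusted limma p under 0.05 without it. Spred1 had 107, 134 and 94.7 CPM in WT and 142, 187 and 143 CPM in Scl-/- libraries. Every Scl-/- library was above every WT library. Its log2 fold change of 0.49 (standard error 0.16, limma adjusted p = 0.00165 with the block) was just above the threshold of 0.48, and the call was lost without replicate 3. Spred2, on chromosome 11, had 72.4, 88.5 and 69.1 CPM in WT and 79.9, 143 and 122 CPM in Scl-/- libraries. Scl-/- replicate 1 lay below WT replicate 2, so the groups overlapped. The log2 fold change of 0.55 (limma adjusted p = 0.0142 with the block) became 0.24 (0.0987) once the median of each chromosome was removed, and the call was also lost without replicate 2 and without replicate 3. Spred3 had 8.76, 7.06 and 8.72 CPM in WT and 6.17, 4.18 and 5.42 CPM in Scl-/- libraries. The groups did not overlap, and the fitted log2 fold change was -0.60 (limma adjusted p = 0.0105 with the block), and this call was lost without replicate 2 and without replicate 3. At 1.12 CPM per kilobase, Spred3 was the lowest of the Sprouty and Spred genes.

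Of the 18 Dusp genes, 0 were called by limma without the block, where 4 had an unadjusted p under 0.05, and 2 with it. The 2 of 18 are near the background of 12.6% with the block. Over all 13991 genes, 2474 had an unadjusted limma p under 0.05 without the block. Dusp6, the cytoplasmic phosphatase specific to ERK, had 58.6, 72.2 and 69.6 CPM in WT and 99.3, 140.0 and 184 CPM in Scl-/- libraries. The groups did not overlap, and the Scl-/- libraries were spread more widely than the WT libraries. Mean CPM of Dusp6 was 66.8 ± 7.25 in WT and 141 ± 42.3 in Scl-/- libraries (SD, n = 3), a ratio of 2.11, and the fitted log2 fold change was 1.03 (standard error 0.22, limma adjusted p = 0.0597 without and 0.00075 with the block). The phosphatases of the same class, Dusp7 and Dusp9, had log2 fold changes of -0.19 (95% interval -0.36 to -0.01 with the block) and 0.09 (-0.16 to 0.34) and no call. Dusp14, an atypical phosphatase gene on chromosome 11, had 1.83, 2.30 and 2.09 CPM in WT and 3.12, 4.76 and 4.63 CPM in Scl-/- libraries. All Scl-/- libraries were higher, at a low level. On the log2 scale the change was 0.84 (limma adjusted p = 0.0939 without and 0.00644 with the block), or 0.54 (0.0345) with chromosome medians removed, and the call was lost without replicate 2.

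The 4 inducible nuclear phosphatase genes Dusp1, Dusp2, Dusp4 and Dusp5 had log2 fold changes between -0.46 and 0.39 and no call. Dusp4, the highest of the 18 per kilobase, ranged from 249 to 286 CPM in WT and from 199 to 298 CPM in Scl-/- libraries. Dusp10 and Dusp16, which act on JNK and p38, were at -0.41 and 0.13, and Dusp10, on chromosome 1, was at -0.13 with chromosome medians removed. Among the 9 atypical genes, Dusp12 (-0.47, limma adjusted p = 0.00404 with the block) and Dusp19 (0.45, 0.013) were just below the threshold of size, the former on chromosome 1 and overlapping the antisense gene Gm9929 over 32.5% of its exon bases. Once chromosome medians were removed, Dusp12 was at -0.19 (limma adjusted p = 0.18 with the block) and Dusp3, on chromosome 11, moved from -0.22 to -0.52 and was called (0.0292). Dusp27 and Dusp28 on chromosome 1 moved from 0.22 to 0.51 and from -0.06 to 0.23, and Dusp18 on chromosome 11 from 0.26 to -0.05, without a call.

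The PEA3 factors, which relay ERK signals to transcription, had higher means in Scl-/- cells, and Etv4 and Etv5 were called with the block. Etv4, on chromosome 11, had 23.4, 41.7 and 25.3 CPM in WT and 38.7, 90.0 and 64.9 CPM in Scl-/- libraries. Only WT replicate 2 reached into the Scl-/- range. The log2 fold change was 1.05 (standard error 0.33, limma adjusted p = 0.162 without and 0.000782 with the block), and 0.75 (0.0017 with the block) with chromosome medians removed. Etv5 had 90.2, 150.9 and 86.2 CPM in WT and 129.9, 210.5 and 153 CPM in Scl-/- libraries. WT replicate 2 again lay within the Scl-/- range, and replicate 2 was the highest in both genotypes. Within each of the 3 pairs the Scl-/- library had more Etv5, and the log2 difference was 0.61 (standard error 0.25, limma adjusted p = 0.269 without and 0.00165 with the block). Etv1 had 13.8, 23.4 and 10.4 CPM in WT and 12.4, 30.4 and 16.5 CPM in Scl-/- libraries. It was lower in the Scl-/- library of pair 1 and higher in the others, and the log2 fold change of 0.28 had an interval of -0.06 to 0.63.

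**Figure D4:**
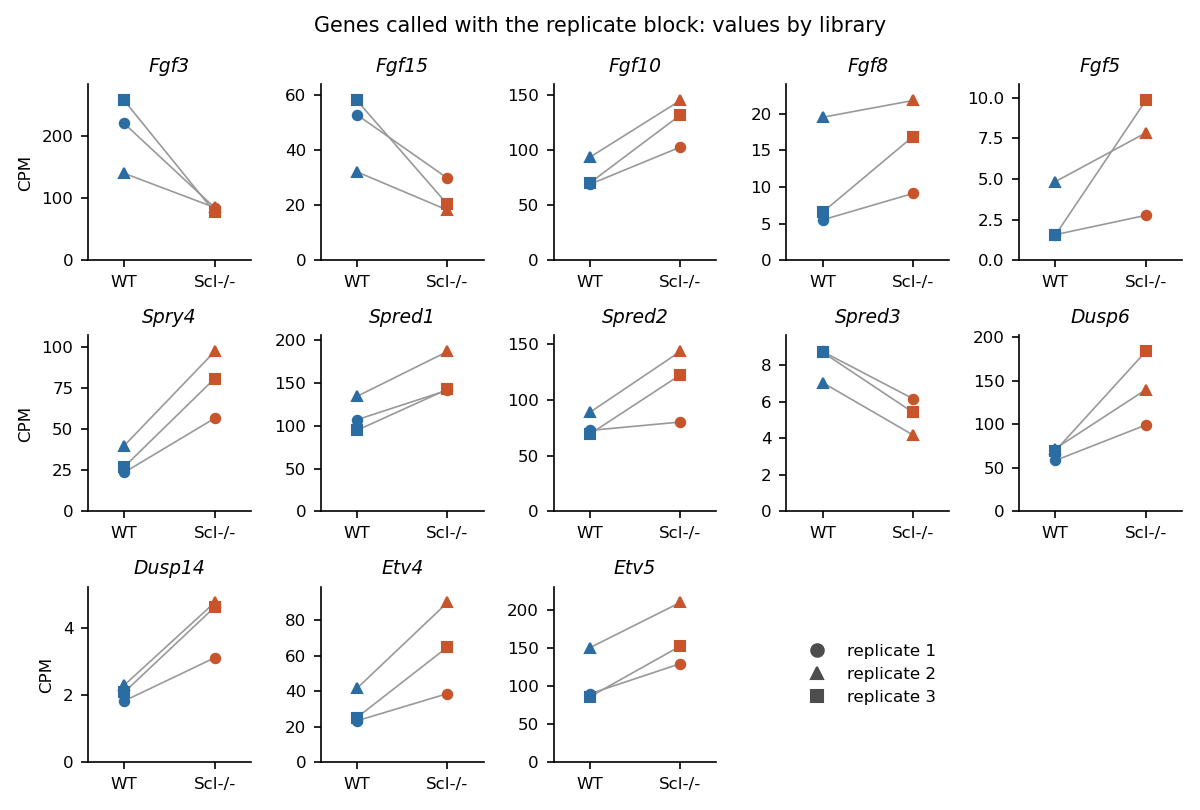
CPM of the 13 genes called with the replicate block, in WT and Scl-/- libraries, with lines that join the libraries of the same replicate number. For each gene the 3 lines run in the same direction; for Fgf8 the WT library of replicate 2 (19.5 CPM) lies above Scl-/- replicates 1 and 3.

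The 3 differentiations differed in these genes as well. In limma's moderated F test of the replicate number, 20 of the 42 genes were called at an adjusted p under 0.05, or 47.6%, against 32.5% of all genes. Replicate 2 stood above the mean of replicates 1 and 3 by 1.20 on the log2 scale for Fgf8 (limma adjusted p = 0.0106), by 1.00 for Etv1 (0.0101), by 0.97 for Dusp5 (0.00505), by 0.80 for Etv4 (0.00722) and by 0.67 for Etv5 (0.00525). The ligand Fgf8, the inducible phosphatase gene Dusp5 and the PEA3 factors were high in the same differentiation, and other members were low in it. Dusp2 went the other way, at -0.98 (limma adjusted p = 0.00108). It had 24.2, 15.1 and 43.4 CPM in WT and 27.6, 20.5 and 51.5 CPM in Scl-/- libraries. Dusp27 (-0.91) and Dusp3 (-0.72) were lower in replicate 2 too. Of the other genes called for the replicate number, Fgf15 (-0.60), Fgf13 (-0.54) and Dusp7 (-0.38) were low in replicate 2. Spry4 (0.58), Spred2 (0.43) and Spred1 (0.40) were high. The range between replicate numbers was 1.47 for Fgf8, 1.00 for Etv1, 1.41 for Dusp2 and 1.31 for Dusp5 on the log2 scale, larger for each than its difference between genotypes. The sum of 6 detected paraxial mesoderm markers was also highest in replicate 2, at 90.3 CPM in WT and 158 CPM in Scl-/- cells, against 19.9 and 22.7 CPM in the other WT and 23.9 and 62.6 CPM in the other Scl-/- libraries. Dll1 made up most of this sum in replicate 2, with 60.2 of the 90.3 CPM in WT and 115 of the 158 CPM in Scl-/- cells, while Tcf15 was lowest in replicate 2 among the WT libraries. This was not particular to paraxial markers. The sums of pluripotent or epiblast (527 and 915 CPM), cardiac (23.5 and 45.5) and neuroectoderm markers (46.4 and 63.6) were also highest in replicate 2 of WT and Scl-/-. The sums of endothelial and blood (198 and 27.3 CPM) and endoderm markers (8.34 and 3.12) were lowest there. Genes within these sums did not all follow. Otx2 made up 26.9 of the 46.4 and 46.1 of the 63.6 CPM of neuroectoderm markers, while Tubb3 was lowest in replicate 2 of both genotypes. The cardiac gene Nkx2-5 was lowest there too. Of the endoderm genes, Sox17 was lowest in replicate 2 of both genotypes, and Cer1 was highest in replicate 2 of WT. The part of these markers in the differences between replicate numbers was not tested.

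**Figure D5:**
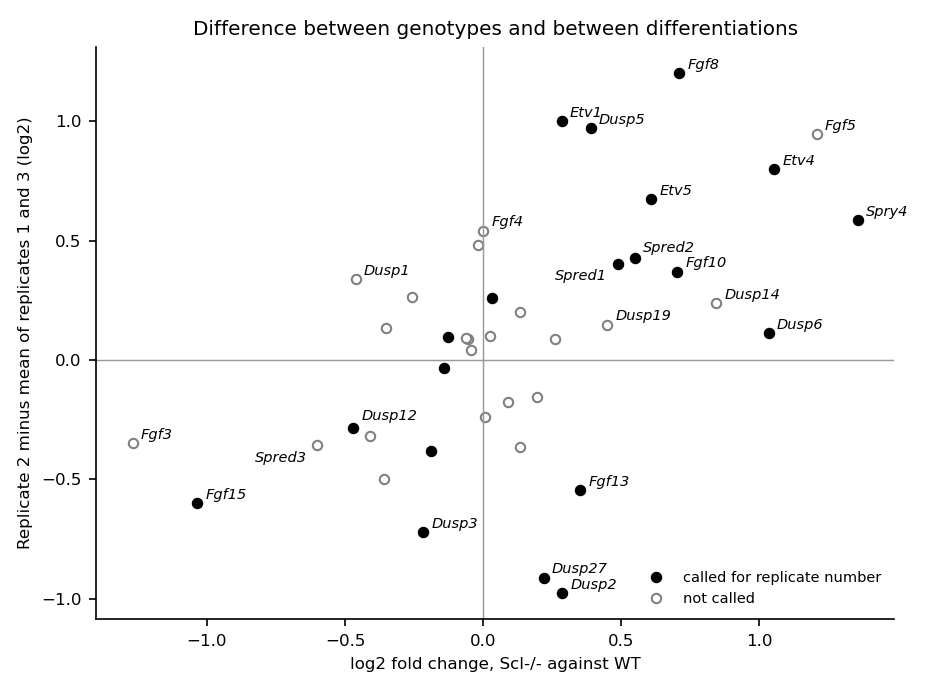
Mean log2 difference of replicate 2 from replicates 1 and 3 (vertical axis) against the log2 fold change of Scl-/- against WT (horizontal axis) for the 42 genes; filled points are the 20 genes called for the replicate number. Fgf8 (1.20) lies highest and Dusp2 (-0.98) lowest, while Fgf3 and Spry4 lie farthest to the left and right.

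Other genes of the pathway were taken from lists of 78 genes that are no members, of which 75 were tested, with Flrt3, listed under 2 identifiers with the same values, counted once. Without the block limma called 3 lower and 0 higher (14 had an unadjusted p under 0.05), and with it 3 higher and 6 lower, or 12.0%, near the background of 12.6%. Of the 30 genes of the adaptor, RAS and ERK cascade, 1 was called with the block, namely the adaptor Gab2, which had 15.2, 9.36 and 10.6 CPM in WT and 5.43, 2.30 and 2.88 CPM in Scl-/- libraries. Its log2 fold change was -1.65 (limma adjusted p = 0.044 without and 0.000183 with the block). Of the 22 coreceptor, heparan sulphate and matrix genes, 1 was higher and 3 were lower with the block. The syndecan gene Sdc3 was at -1.82 (limma adjusted p = 0.038 without the block), and the glypican genes Gpc4 and Gpc1 were at 0.69 and -0.52. Hs6st1, an enzyme of heparan sulphate sulphation, was at -0.64 and lies, like Gpc1, on chromosome 1. With chromosome medians removed Hs6st1 was at -0.35 and Gpc1 at -0.23, below the threshold of size. Of the 23 ERK-responsive and other feedback genes, 2 were higher and 2 lower with the block. Il17rd, which encodes the FGF antagonist SEF, had 130.1, 154 and 105 CPM in WT and 178, 197 and 178 CPM in Scl-/- libraries, a log2 fold change of 0.52 (limma adjusted p = 0.00404 with the block), and no Scl-/- library reached down to the WT range. Phlda1 had 185, 117 and 175 CPM in WT and 74.2, 35.1 and 39.3 CPM in Scl-/- libraries, a log2 fold change of -1.72 (limma adjusted p = 0.0316 without the block). The AP-1 genes Fosl2 and Jun, called with the block only, were at 0.64 and -1.18. The adjusted p of Fosl2 moved from 0.0437 to 0.0556 (limma) with chromosome medians removed, while its log2 fold change stayed at 0.64. Jun had 371, 194 and 93.1 CPM in WT and 73.9, 124 and 62.7 CPM in Scl-/- libraries, so the groups overlapped. The log2 difference of Jun was -2.32 in pair 1, and -0.65 and -0.57 in pairs 2 and 3.

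Markers of other cell types also differed between the groups. Cardiac markers (5 of 8 with a row) summed to 15.1 to 23.5 CPM in WT and 26.0 to 45.5 CPM in Scl-/- libraries. Tbx5, Tnnt2 and Myh6 were not listed. Myl7, on chromosome 11, had 3.36, 8.10 and 4.44 CPM of this sum in WT and 11.9, 26.0 and 22.0 CPM in Scl-/- libraries. Paraxial markers (6 of 8) summed to 19.9 to 90.3 and 23.9 to 158 CPM, endoderm markers (2 of 8) to 8.34 to 22.4 and 3.12 to 8.44 CPM, and neuroectoderm markers (3 of 8) to 25.2 to 46.4 and 24.9 to 63.6 CPM. Called with the block were 3 cardiac and 3 paraxial genes, all higher, and 2 neuroectoderm genes, 1 in each direction. Of the 2 endoderm genes with a row, 1 was called, and it was lower. Sox17 had 14.7, 6.53 and 22.0 CPM in WT and 2.95, 0.967 and 5.56 CPM in Scl-/- libraries. Cer1 was higher in each Scl-/- library than in its same-numbered WT library. The paper lists Sox17 among the endothelial genes that SCL activates. In each pair, the cardiac genes Mef2c and Nkx2-5 and the paraxial genes Foxc2 and Tcf15 were lower in the Scl-/- library, without a call. What part cells of these types had in the levels of the FGF and feedback genes was not tested.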

How the data were processed

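RNA-seq of FLK1+ cells from day 3.5 EBs was available from 3 WT and 3 Scl-/- libraries, grouped by the genotype and replicate labels. The authors aligned reads to mm9 with TopHat2 2.0.8b, removed duplicates and reads of low mapping quality with SAMtools 0.1.19 and normalized with TMM in edgeR. The authors deposited these as CPM values for 14005 genes; the counting tool, its annotation and strand setting and the low-value filter are not given in the sources used here. Removal of duplicates can limit the values of highly expressed and short genes. Every value was a whole multiple of a step per library (100% within 0.1 of a step). This gave the depth of 38623641 to 47621120 reads. The floors in reads cover counting error only. The intervals of log2 fold changes come from the limma fits and rest on the variation between libraries. Low values were too few to recover counts by the criterion set, so no count model was run.

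A filter of 0.5 CPM in 3 or more libraries left 13991 genes (14 were removed), which were fitted on log2(CPM + 0.5) with limma 3.58.1 in R 4.3.3 (lmFit, eBayes with intensity trend), with condition as the term and, beside it, with the replicate number as a block. The pseudocount understates changes of low genes. The methods name no design for the model. The numbers pair the samples: the design text describes 3 independent differentiations, and over all genes the deviations from group means correlated at 0.587, 0.756 and 0.748 within numbers and at -0.621 to -0.0996 between numbers. P-values are two-sided. The fits were also run on simulated data, with replicate effects drawn independently for each gene, and the outcome is not given here. Gene positions and exon lengths come from the GENCODE annotation of mm9, promoters from RefSeq (GRCm38.p6). Summaries ran in Python 3.11.15 with pandas 2.3.3 and NumPy 2.4.6, and figures in Matplotlib 3.10.9.

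Values per library are printed for members called in either fit, all receptors, Sprouty and Spred genes, Dusp6, the PEA3 factors and the 5 ligands highest per kilobase; pathway genes are those called in either fit, up to 5 per direction. Gpc1, the sixth lower one, Fadd, Gm10574, Ppfia1, Ano1, Shank2, Ccnd1, Oraov1 and Gm17685, the other Dusp genes, Fgf4, Fgf11, Fgf13, Frs2, Frs3, the marker genes and the replicate examples were named after their values were seen. The members and lists were chosen with earlier results of these data known. Alternatives were both other pseudocounts (0.1, 1), no low-value filter or a mean of 2 CPM or more, median-ratio rescaling, chromosome medians removed, no intensity trend, other fold thresholds and libraries left out.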

Additional observations from a re-analysis of the deposited data

How the results depend on the processing

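The direction of the 21 genes given with all libraries held under every alternative except for 4 genes without a call: leaving out libraries in turn, Etv1 ranged from -0.069 (without Scl-/- replicate 2) to 0.597, Fgf2 from -0.036 (without Scl-/- replicate 1) to 0.284, Fgfr1 from -0.065 (without Scl-/- replicate 2; -0.019 without WT replicate 1) to 0.108 and Fgfr2 from -0.086 to 0.0069 (without Scl-/- replicate 3), and Fgf2 was at -0.043 with the replicate block and without replicate 1. The number of members called was 2 under both other pseudocounts, both other filters, median-ratio rescaling and other fold thresholds. It was 1 without the intensity trend, 13 with the replicate block, 13 with the block and chromosome medians removed (12 of them the same genes), and 17 with the block but at any size of change, an alternative added once the data had been seen. With the block it was 18, 10 and 8 without replicate numbers 1, 2 and 3, and without the block 0 to 3 when a library was left out. Counts over all genes in these fits with fewer libraries are not given here. The block ended no call, and it changed none other than those counted here. The cause was not tested. For the other pathway genes, the count of 3 became 1 without the trend, 9 with the block, 6 with the block and chromosome medians removed, 21 with the block at any size of change, and 11, 7 and 7 with the block without numbers 1, 2 and 3, with 0 to 3 when a library was left out. The 20 members called for the replicate number became 0 in a fit without the condition term, where 9 had an unadjusted p under 0.05, and were 19 or 20 otherwise. Tal1 stayed between -5.39 and -5.01 when a library was left out. The lone arms of these fits are assumed to vary like the other libraries, and 3 libraries a group limit the precision of every value.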
